A study of Talinum fruticosum with 24 samples.

Results

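Mock-treated leaves of the waterleaf Talinum fruticosum (named Talinum triangulare in the series title) were compared between late morning and midday. The 4 libraries were chosen by their titles: 2 mock libraries harvested 40 min and 2 harvested 160 min after the first spray, of 24 libraries in all. Lights had been on for 4.7 h at the first of these harvests and for 6.7 h at the second. The mock solution held methanol and the detergent Tween-20 without hormone, and it was sprayed after 4 h of light in a 12 h light period. Both harvests came before the second spray, which followed 4 h after the first. All plants were 2 months old, were well watered and carried no stated genetic change. No plant gave more than 1 library, and the 2 treated leaves of a plant were pooled. The other libraries serve as reference, and the filter and fit used them too, so they help set the spread behind each test. They are mock leaves at 80 min and later harvests, and leaves sprayed with 200 µM abscisic acid (ABA, the hormone of the drought response). ABA leaves are compared at 40 and 160 min, and some figures show them at the other harvests as well. Because every leaf was sprayed at the same hour, time of day and time since the mock spray cannot be told apart.

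Transcript levels in leaves follow the day. A circadian clock built from transcription factors that repress each other in turn sets the phase of many leaf transcripts, and light and sugars act on it and on its targets. Transcripts for light harvesting and carbon fixation are among the most abundant in leaves. Talinum is a C3 plant that can turn to crassulacean acid metabolism, a mode of photosynthesis with carbon dioxide uptake in the dark, and the study asks how ABA starts that turn. Mock leaves supply the daily course against which an ABA effect is read. The feature identifiers carry no gene names in the files, so neither clock genes nor leaf marker genes could be looked up, the labelled tissue was not checked against markers, and no sequence is shown. Features are described by their level and behaviour, and for each comparison at most 2 identifiers that rose and 2 that fell are given. The RNA is from whole leaves, in which fewer cells of a type and less RNA per cell cannot be told apart.

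The totals of the 4 libraries were 24222536 and 24624505 counts at 40 min and 16577222 and 19555759 counts at 160 min. The midday libraries were thus shallower in total counts. Between 18459 and 18600 features had counts in each. Across features, the replicates correlated at r = 0.9845 at 40 min and r = 0.9825 at 160 min, and pairs with 1 library from each harvest at r between 0.9459 and 0.9602. The median absolute log2 difference per feature was 0.21 between the 40 min replicates and 0.241 between the 160 min replicates. Across the harvests it was 0.402 to 0.467, larger than within either group.

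Within 2 h, many transcripts of the mock leaves had risen or fallen. After scaling with TMM factors, which set the bulk of features level between libraries, 4732 of 17561 tested features differed between 160 and 40 min (26.9%; edgeR quasi-likelihood test, adjusted p under 0.05). Of these, 2178 were higher (12.4% of those tested) and 2554 were lower (14.5%) at 160 min. Changes of at least 2-fold were seen for 923 higher and 1174 lower features, at least 4-fold changes in 209 and 228, and at least 8-fold changes in 84 and 54. The median log2 fold change was 0.89 among the higher and -0.95 among the lower features, and the smallest change called was 0.27. The harvests did not overlap for 2176 higher and 2547 lower features, while 2 higher and 7 lower ones were called in spite of overlap. Over all tested features, 63.9% did not overlap between the groups, so separation alone was common. The total was 2993 without mock 40 min replicate 1 (17.0% called, 9.92% lower), 3089 without mock 40 min replicate 2 and 2508 without mock 160 min replicate 1.

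The direction of change depended on how the libraries were scaled. Scaling to library size alone gave 8502 features past the threshold (48.4%), 7737 higher (44.1%) and 765 lower (4.36%), so that 91% of the calls were increases in place of 46% with TMM. Over all features the median log2 change was 0.56 with library size and 0.00 with TMM. No feature was called in opposite directions by the 2 scalings. All 2178 features that were higher with TMM were also higher with library size. The TMM log2 fold change minus that with library size had a median of -0.56. Both of these agreements are therefore largely fixed by the shift between the scalings. Of the 2554 that were lower with TMM, 765 (30%) were also lower with library size and 1789 were not called there. Another 5559 features were higher with library size only. The 2178 increases and the 765 decreases are thus called under both scalings, while the remaining calls are relative to the scaling chosen. Of these 765 decreases, 746 were at least 2-fold with TMM, and the median log2 fold change of the 765 was -1.59. That size is largely set by the choice, since a decrease called with library size must exceed the shift between the scalings.

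**Figure D1:**
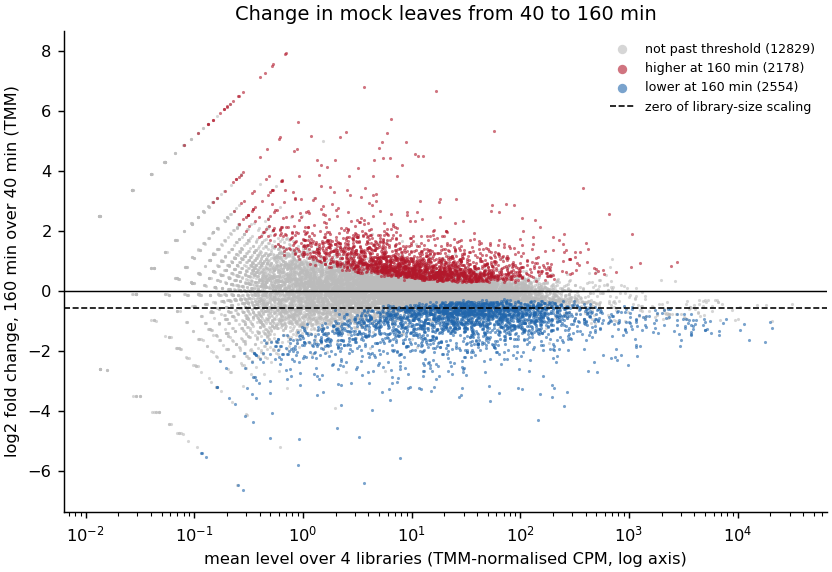
Log2 fold change from 40 to 160 min in mock leaves (TMM scaling) against the mean level over the 4 libraries on a log axis, 1 point per tested feature. The dashed line at -0.56 is where zero lies with library-size scaling. The most abundant features lie mostly below the solid zero line. Diagonal streaks at low level are features with few or no counts at 1 harvest. Their fitted values depend on the default prior count of the fit.

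The most abundant features took a smaller share of the counts at midday. The 100 features with the highest mean share over the 4 libraries held 52.8% and 47.5% of the counts at 40 min and 38.4% and 44.5% at 160 min. Both 40 min libraries lay above both 160 min libraries, with means of 50.2% ± 3.75 and 41.4% ± 4.31 (SD, n = 2 per group). The Wilson 95% intervals, which cover counting error only, were 52.75 to 52.79 and 47.44 to 47.48 at 40 min and 38.34 to 38.38 and 44.48 to 44.53 at 160 min. The mock libraries at 80 min lay between, at 45.3% and 48.0%, though replicate 2 was above the lower 40 min library. In ABA leaves, which share no library with these, the same features held 47.4% and 46.6% at 40 min and 39.2% and 37.0% at 160 min.

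The 100 abundant features were split into 2 groups by a cutoff on the ratio of their shares in the 40 min replicates. In mock 40 min replicate 1, 40 of them had more than 1.5 times their share in replicate 2, up to 3.23 times, and only 1 had less than 1/1.5 of it. These 40 held 20.5% of the counts of replicate 1 and 10.3% of replicate 2, then 11.0% and 12.1% at 160 min. In the 23 libraries other than replicate 1 their share ran from 9.01% to 17.2%, with a median of 12.1%. The group was chosen after its values were seen, so its height in replicate 1 is a description. The other 60 features held 32.3% and 37.1% at 40 min and 27.3% and 32.4% at 160 min, where the groups overlap narrowly. Removal of the 40 for their height in replicate 1 lowers the share of the 60 in that library, so this overlap is a description too. At night, at 640 min, these 60 held 12.7% and 12.4% in mock leaves, and 28.7% and 26.9% at 1280 min, the next morning.

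**Figure D2:**
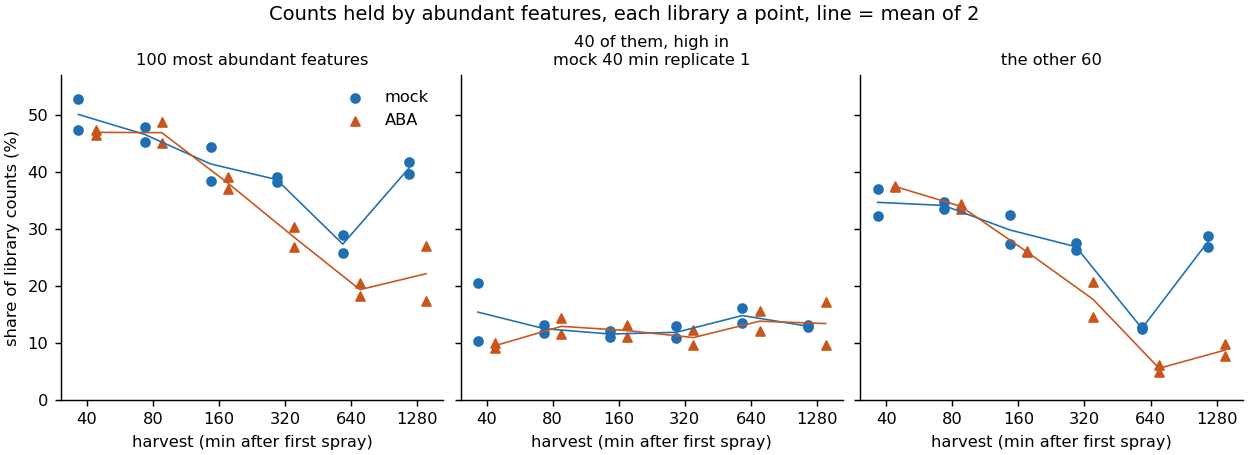
Share of library counts held by the 100 most abundant features, by 40 of them that were high in mock 40 min replicate 1, and by the other 60, against harvest; each point is a library and each line joins the means of 2. The 40 features stand at 20.5% in 1 mock library at 40 min and at or below 17.2% in all others, while the other 60 fall from 37.1% and 32.3% to 12.7% and 12.4% by night in mock leaves.

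Among the 100 most abundant features, 47 were lower and 2 higher at 160 min with TMM, and 51 were not past the threshold, beside 14.5% lower over all features. Their median log2 fold change was -0.80. The count of 47 depended on single libraries, on the scaling and on the fit. It was 11 with library size alone and 14 in a fit to the compared groups only. It was 61 in a fit to the 12 mock libraries and 67 with DESeq2. Without mock 40 min replicate 1 the median log2 fold change of the 100 features was -0.39. Of the 47 decreases, 22 were among the 40 features that were high in replicate 1 and 25 among the other 60. Without that replicate the counts were 0 and 14, a description only, since the choice of the 40 by their height in replicate 1 fixes that their decrease shrinks without it. The next 900 features by abundance included 372 lower and 79 higher, with a median of -0.40. The 4000 after these held 968 lower and 499 higher, the following 5000 held 665 lower and 792 higher, and the 7561 least abundant tested features held 502 lower and 806 higher. The median moved from -0.09 through 0.06 to 0.10 over these last 3 classes. The share called was 50.1% in the class of 900 and 17.3% in the last class. Mean counts over the 4 libraries did not exceed 129.25 in the last class, and whether depth sets the share called was not tested. These class values use TMM, and their direction depended on the scaling. With library size alone the class of 900 had 120 lower and 235 higher features, with a median of 0.16. The 4000 after these had 258 lower and 2104 higher, with a median of 0.47. The library-size median was -0.23 in the top 100 and 0.65 in the last class.

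A few of the most abundant features, described by rank after their values were seen, were lower by each measure. The feature of rank 6 took 1.79% and 2.09% of counts at 40 min and 0.807% and 0.936% at 160 min. Its groups are well apart, with a log2 fold change of -1.70 ± 0.24 (SE; adjusted p = 6.63e-05 by edgeR), -1.16 with library size (adjusted p = 0.000237) and -1.72 without mock 40 min replicate 1 (adjusted p = 0.000519). Rank 8 took 1.26% and 1.47%, then 0.655% and 0.632%, a log2 fold change of -1.64 ± 0.27 (SE; adjusted p = 0.000268 by edgeR) and of -1.08 with library size (adjusted p = 0.00127). The most abundant feature of all took 2.27% and 2.85% at 40 min and 2.51% and 3.05% at 160 min. Its groups overlap, and its log2 fold change of -0.42 ± 0.30 (SE; adjusted p = 0.32 by edgeR) did not pass the threshold. Rank 9 shows the pattern of the 40 features, with 1.49% and 0.663% at 40 min and 0.714% and 0.806% at 160 min. Its log2 fold change was -1.09 ± 0.38 (SE; adjusted p = 0.04 by edgeR) with all libraries and -0.26 (adjusted p = 0.687) without mock 40 min replicate 1.

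Features are named here and for the comparisons that follow as the 2 highest and 2 lowest log2 fold changes among calls with a mean of at least 10 counts and no overlap between groups. Those of mock leaves from 40 to 160 min had few or no counts at 1 harvest and low levels at the other. KMT16763 had 0 and 0 counts at 40 min and 34 and 18 counts at 160 min, at least 16-fold higher (floor of 3 counts over the group; adjusted p = 0.00633 by edgeR). It also had no counts in either mock library at 80 min, and at later mock harvests its level stayed between 0.33 and 1.21 CPM (counts scaled to a common library size with TMM). KMT18575 had 0 and 0 counts at 40 min, 1 and 7 at 80 min and 31 and 20 at 160 min. It was at least 15.7-fold higher at 160 min (adjusted p = 0.000445 by edgeR) and reached 1.67 and 1.06 CPM there. In all, 5 features had no counts at 40 min and at least 10 in both 160 min libraries, and 0 features showed the reverse. With any count on the other side, 562 features were without counts in both 40 min libraries and 495 in both 160 min libraries. The 160 min pair had lower totals but higher TMM factors, 1.12 and 0.965 against 0.66 and 0.752 at 40 min. Totals alone therefore do not give the depth for the bulk of features.

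KMT12690 had the lowest log2 fold change by that rule. It had 116 and 131 counts at 40 min, 44 and 36 at 80 min and 1 and 2 at 160 min, which is 7.26 and 7.07 CPM, then 2.36 and 1.76, then 0.054 and 0.106. The 3 harvests do not overlap. The ratio of 160 to 40 min was 0.0112 (95% interval from counting error 0.00229 to 0.0331; adjusted p = 2.8e-05 by edgeR). In the mock leaves it stayed at or under 0.123 CPM at 320 and 640 min and stood at 121 and 103 CPM at 1280 min, 1.3 h into the next light period. KMT08510 had 22 and 40 counts at 40 min and 0 and 1 at 160 min, a ratio of 0.0149 (95% interval from counting error 0.000371 to 0.086; adjusted p = 0.00161 by edgeR). It was near 0 again at 320 min (1 and 0 counts) and 640 min (0 and 2) and had 55 and 77 counts at 1280 min. The calls of these 4 features held under all 14 alternatives tried, with adjusted p up to 0.0469 for KMT16763.

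**Figure D3:**
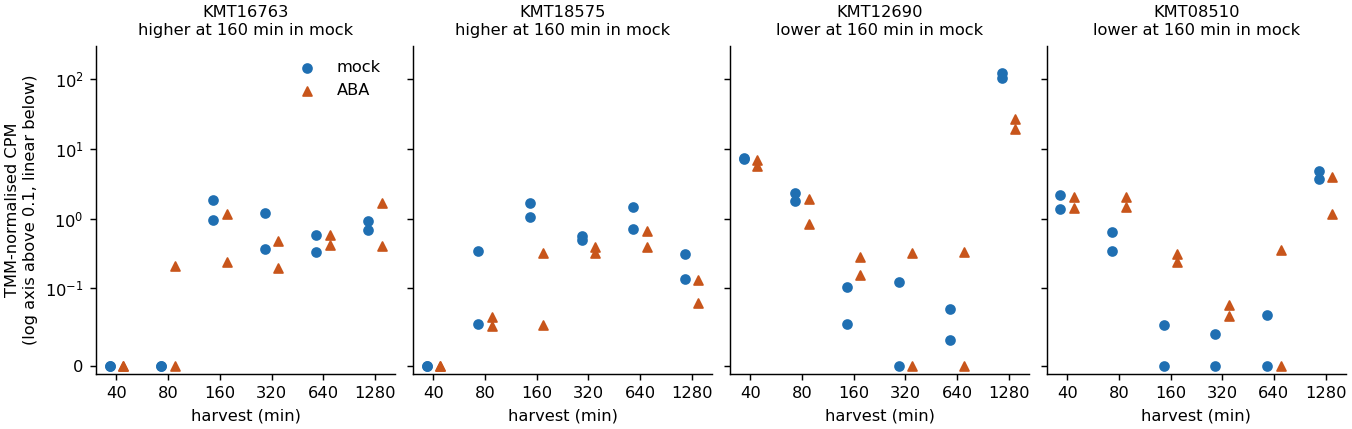
TMM-normalised CPM of the 4 features named for mock leaves from 40 to 160 min, in all 24 libraries by harvest; the axis is logarithmic above 0.1 CPM and linear below. KMT12690 and KMT08510 are low from 160 to 640 min and high at 1280 min in mock leaves, while KMT16763 has no counts in mock leaves until 160 min.

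The mock libraries at 80 min, 5.3 h after lights on, place the change within the interval. Along the first principal component of these 6 libraries, which held 47.9% of the variance, the 40 min libraries scored -48.5 and -44.0, the 80 min libraries -8.85 and -9.62, and the 160 min libraries 63.2 and 47.8. The 3 harvests were in order and did not overlap. The 80 min plants differed on the second component, with scores of -18.2 and -55.2. Between 40 and 80 min 832 features passed the threshold (4.74%; 413 higher, 2.35%, and 419 lower, 2.39%), and between 80 and 160 min 3252 did (18.5%; 1553 higher, 8.84%, and 1699 lower, 9.67%). Library size alone gave 566 higher (3.22%) and 97 lower (0.552%) for the first step, 3.78% in all. For the second it gave 4776 higher (27.2%) and 547 lower (3.11%), 30.3% in all. The first count rests on single plants: it was 20 without mock 80 min replicate 2, 57 without mock 40 min replicate 1, 311 without mock 40 min replicate 2 and 1787 without mock 80 min replicate 1. The second was 1501 without mock 80 min replicate 2, 1659 without mock 160 min replicate 1 and 1972 without mock 160 min replicate 2. For the 2178 features that were higher at 160 min the median log2 fold change was 0.33 from 40 to 80 min and 0.55 from 80 to 160 min. For the 2554 lower features the medians were -0.33 and -0.59, beside -0.01 and 0.00 over all features. These comparisons share libraries with the one that chose the lists. The step from 80 to 160 min is the longer one, and rates of change were not compared.

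Between 40 and 80 min the largest increases were in features almost without counts at 40 min. KMS96523 had 0 and 0 counts at 40 min and 7 and 44 at 80 min, at least 15-fold higher (adjusted p = 0.0321 by edgeR), and KMT16478 had 0 and 1 counts, then 18 and 34 (ratio 45.9, 95% interval from counting error 7.88 to 1850; adjusted p = 0.0158 by edgeR). The KMS96523 call ended without mock 40 min replicate 1 (adjusted p = 0.18) or 2 (0.134) and without mock 80 min replicate 2 (0.253), and that of KMT16478 without the same libraries (0.155, 0.0735 and 0.136). Both decreases rest on 1 plant at 40 min. KMS65032 had 474 and 21 counts at 40 min and 9 and 8 at 80 min (log2 fold change -5.12 ± 1.31, SE; adjusted p = 0.0381 by edgeR). Its adjusted p was 0.644 without mock 40 min replicate 1, 0.0804 without mock 80 min replicate 1 and 0.236 without mock 80 min replicate 2, its log2 fold change without the first of these was -1.37, and the call was lost in 9 of 14 alternatives. KMT07040 had 25 and 104 counts, then 8 and 10 (log2 fold change -2.96 ± 0.63, SE; adjusted p = 0.0141 by edgeR). Without mock 40 min replicate 2 its log2 fold change was -1.75 (adjusted p = 0.185), and without mock 80 min replicate 2 its adjusted p was 0.14.

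From 80 to 160 min KMT16763 again led the named increases, at least 18.1-fold (adjusted p = 0.0084 by edgeR, and 0.065 without mock 80 min replicate 2). KMT13478 followed, with 0 and 2 counts at 40 min, 14 and 11 at 80 min and 59 and 211 at 160 min. Its log2 fold change from 80 min was 3.48 ± 0.63 (SE; adjusted p = 0.0016 by edgeR), and its level climbed on to 55.8 and 51.0 CPM at 320 min before dropping to 0.407 and 0 CPM at 1280 min. KMT12690 led the named decreases here too, with a ratio of 0.0392 (95% interval from counting error 0.00792 to 0.119; adjusted p = 0.00333 by edgeR). KMT16365 had its highest mock level at 80 min, with 11 and 35 counts at 40 min, 58 and 64 at 80 min and 4 and 1 at 160 min. Its log2 fold change from 80 to 160 min was -4.49 ± 1.37 (SE; adjusted p = 0.0321 by edgeR), and the call ended without mock 80 min replicate 1 (adjusted p = 0.0536) or 2 (0.0918) and without mock 160 min replicate 1 (0.113) or 2 (0.171).

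With TMM scaling, the changes made by midday were still present in the afternoon and at night. In the median they were gone by the next morning. TMM factors in mock leaves were 0.66 and 0.752 at 40 min, 1.38 and 1.46 at 640 min and 0.718 and 0.778 at 1280 min. The later course of the lists is therefore relative to TMM scaling, and it was not examined with library size alone. Each feature's log2 level was set against its mean over the 12 mock libraries, and the median over each list was taken in every library. The 2178 higher features stood at -0.52 and -0.50 at 40 min, at -0.15 and -0.15 at 80 min and at 0.44 and 0.32 at 160 min. They stood at 0.37 and 0.43 at 320 min, at 0.48 and 0.52 at 640 min and at -0.56 and -0.54 at 1280 min. Only the 40 and 160 min libraries had chosen the list. The 2554 lower features gave a mirror image, with 0.57 and 0.56 at 40 min, -0.41 and -0.30 at 160 min, -0.46 and -0.47 at 320 min, -0.43 and -0.50 at 640 min and 0.54 and 0.50 at 1280 min. Over all tested features the medians in mock libraries lay between 0.00 and 0.05. The median hides a wide range: for the higher features the log2 fold change of 1280 over 40 min, which shares the 40 min libraries, had a median of -0.03 with quartiles of -0.80 and 0.68. From 640 to 1280 min, a comparison with no library in common with that of 160 and 40 min, the higher features had a median log2 fold change of -1.01 and the lower ones of 0.95, beside -0.07 over all features. The 765 features lower under both scalings had a median of 1.57 there.

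**Figure D4:**
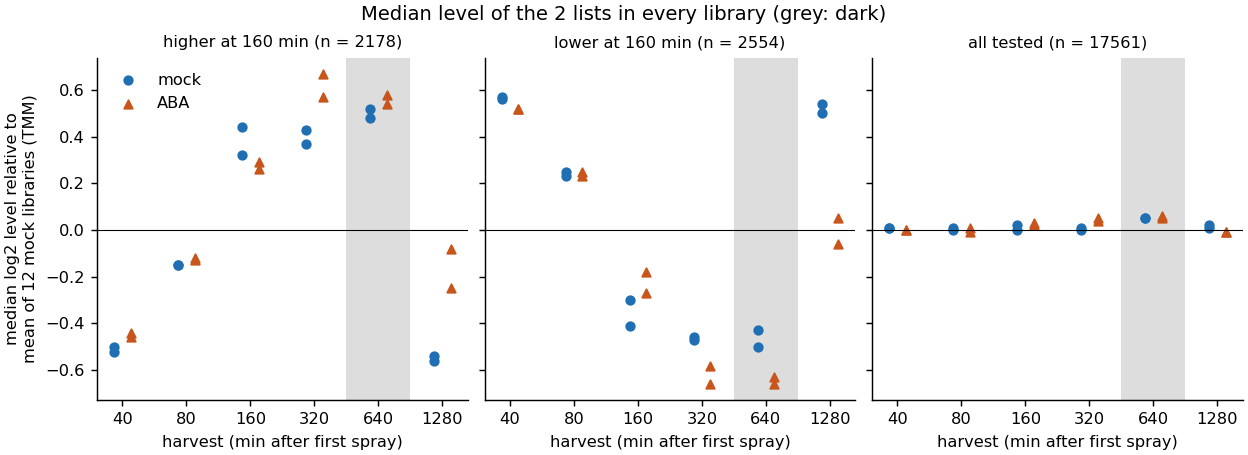
Median log2 level, relative to each feature's mean over the 12 mock libraries, of the 2178 features higher and the 2554 lower at 160 than at 40 min in mock leaves and of all 17561 tested features; each point is a library, and the grey band marks the dark harvest. In mock leaves the higher list lies above zero from 160 to 640 min and below it at 40, 80 and 1280 min, and the lower list does the opposite. Levels use TMM scaling only.

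ABA-sprayed leaves over the same 2 h, which share no library with the mock leaves, changed mostly the same way. Across 17561 features the 2 sets of log2 fold changes correlated at Pearson r = 0.60 and Spearman rho = 0.65, a description, since features are not independent and both sets share the hour, the chamber and the first spray. Of the 2178 features that were higher in mock leaves, 1390 (63.8%) were also higher in ABA leaves, 12 were lower and 776 were not past the threshold. Of the 2554 lower features, 1641 (64.3%) were lower, 61 were higher and 852 were not past it. Seen from ABA leaves, these are 47.3% of 2939 increases (16.7% of those tested) and 55.9% of 2936 decreases (16.7%), out of 5875 calls (33.5%). Library size alone called 45.8% in ABA leaves, 39.4% higher and 6.35% lower. The ABA total was 3701 without ABA 40 min replicate 1 and 3763 without ABA 160 min replicate 2. The sign was shared by 94.4% of the higher, 90.5% of the lower and 76.0% of all tested features. Among the 765 features lower under both scalings, 575 (75.2%) were lower in ABA leaves. The median log2 fold change in ABA leaves was 0.74 over the higher and -0.76 over the lower mock features, against 0.89 and -0.95 in the mock leaves that chose them.

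The change in ABA leaves differed from that in mock leaves for 535 features (3.05%; edgeR test of the difference), with 400 more positive (2.28%) and 135 more negative (0.769%) in ABA leaves. Library size alone gave 300 (1.71%), with 174 more positive (0.991%) and 126 more negative (0.717%), 58% more positive in place of 74.8%. The difference was past the threshold for 82 of the 2178 higher mock features (3.76%) and for 172 of the 2554 lower ones (6.73%), of which 155 were more positive in ABA leaves. These counts are descriptions, since the difference subtracts the same mock change that chose both lists, which by itself favours more positive differences among the lower features. All 12 and all 61 features with opposite calls were among these 82 and 172. That is largely fixed by their choice, since the difference subtracts 1 of the opposite changes from the other. Of the features called in mock leaves and not in ABA leaves, the difference itself passed for only 27 of 776 higher and 83 of 852 lower ones. The total of 535 was 269 and 322 without mock 40 min replicates 1 and 2, 219 without mock 160 min replicate 2, 170 and 236 without ABA 40 min replicates 1 and 2, and 304 and 223 without ABA 160 min replicates 1 and 2.

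**Figure D5:**
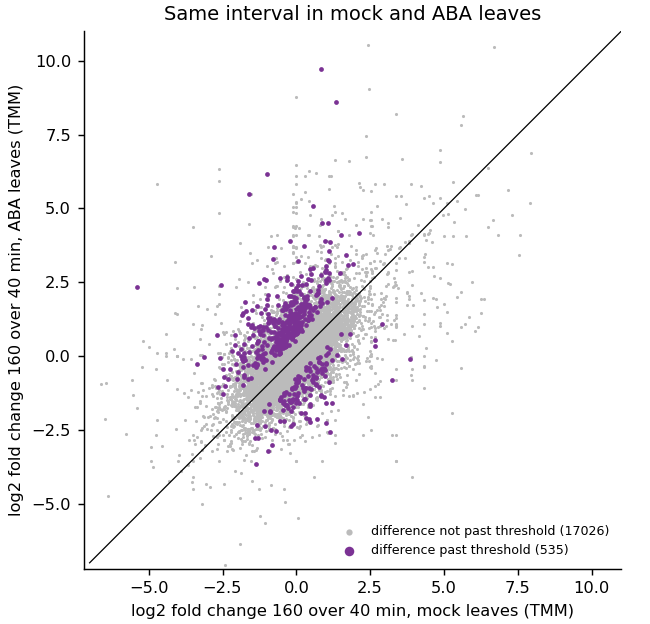
Log2 fold change from 40 to 160 min in ABA leaves against that in mock leaves (TMM scaling), 1 point per tested feature, with the line of equal change. The 535 purple features are those whose change differed between the treatments, 400 of them above the line and 135 below it.

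The features named for the difference between treatments are these. KMT03434 had 40 and 25 counts at 40 min and 78 and 102 at 160 min in mock leaves, a log2 fold change of 1.34 ± 0.50 (SE; adjusted p = 0.0584 by edgeR). In ABA leaves it went from 27 and 27 counts to 16381 and 11947, and the difference of the changes was 7.26 ± 0.74 (SE; adjusted p = 8.73e-05 by edgeR). KMT10308 had 7 and 1 counts, then 9 and 7, in mock leaves, which is 1.84 times as many after TMM scaling (95% interval from counting error 0.745 to 4.98). In ABA leaves it had 0 and 0, then 112 and 99, at least 52.1-fold higher (adjusted p of the difference = 0.0257 by edgeR). That call ended without mock 40 min replicate 1 (adjusted p = 0.439), ABA 40 min replicate 1 (0.102) or 2 (0.0978), mock 160 min replicate 2 (0.0716) or ABA 160 min replicate 2 (0.0588). KMT17186 had 34 and 35 counts, then 107 and 57, in mock leaves, a log2 fold change of 1.13 that did not pass (adjusted p = 0.0894 by edgeR). In ABA leaves it fell, from 29 and 24 counts to 7 and 5 (adjusted p = 0.00682 by edgeR). The difference of the changes was -3.69 ± 0.82 (SE; adjusted p = 0.0196 by edgeR). It did not pass without mock 40 min replicate 1 (0.0581) or 2 (0.063), ABA 40 min replicate 1 (0.1), mock 160 min replicate 1 (0.0557), or ABA 160 min replicate 1 (0.087) or 2 (0.0849). KMT10142 had 13 and 16 counts, then 30 and 33, in mock leaves, a log2 fold change of 1.00 that did not pass either (adjusted p = 0.144 by edgeR). In ABA leaves it fell, from 14 and 23 counts to 5 and 5 (adjusted p = 0.00912 by edgeR). The difference was -3.28 ± 0.80 (SE; adjusted p = 0.032 by edgeR), and it did not pass without mock 40 min replicate 1 (0.0914) or 2 (0.0816), ABA 40 min replicate 1 (0.066) or 2 (0.154), mock 160 min replicate 2 (0.0998), or ABA 160 min replicate 1 (0.127) or 2 (0.0918).

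The features named for ABA leaves from 40 to 160 min are given beside their values in mock leaves. The test of the difference between treatments passed for none of the 4, with edgeR adjusted p of 0.411 for KMS99148, 0.132 for KMT10307, 0.495 for KMT03344 and 0.0809 for KMT09934. KMS99148 had 6 and 5 counts at 40 min and 931 and 314 at 160 min in mock leaves, and 2 and 2, then 4113 and 3727, in ABA leaves. It rose in both treatments (adjusted p = 2.57e-05 in mock and 5.62e-07 in ABA leaves by edgeR), and every 160 min library lay above every 40 min library. KMT10307 had 2 and 3 counts, then 19 and 11, in mock leaves and 0 and 0, then 200 and 171, in ABA leaves, at least 91.7-fold higher (adjusted p = 2.5e-05 by edgeR), while its change in mock leaves did not pass (adjusted p = 0.0916). KMT03344 fell in both, from 465 and 544 counts to 74 and 45 in mock leaves (log2 fold change -3.20 ± 0.70, SE; adjusted p = 0.00356 by edgeR) and from 489 and 511 to 35 and 8 in ABA leaves (log2 fold change -5.00 ± 0.80, SE; adjusted p = 0.000223 by edgeR). KMT09934 had 13 and 13 counts, then 9 and 3, in mock leaves and 18 and 22, then 0 and 1, in ABA leaves (ratio 0.0185, 95% interval from counting error 0.000458 to 0.109; adjusted p = 0.000199 by edgeR). Its change in mock leaves did not pass (adjusted p = 0.17).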

How the data were processed

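Per the labels' protocols, stranded TruSeq mRNA libraries were sequenced as single reads of 150 bp, with 12 samples per lane. Which library ran in which lane was not known, and no batch could be examined. The deposited values are raw counts per feature, 1 list per library. Per the submitters' processing notes, the tools included Trimmomatic, CASAVA and DESeq2, with no version; the aligner, counter and reference were not given in the sources used here, and features may merge or split transcripts, and antisense or near-identical ones cannot be told apart. Sample labels were corrected by the submitters at a later date, per the labels, and are used as they now stand. Features not listed in a library were taken as 0.

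The main analysis used edgeR 4.0.16 under R 4.3.3: expression filter by group (minimum count 10; 17561 of 20617 features kept), TMM factors (0.66 and 0.752 at 40 min, 1.12 and 0.965 at 160 min in mock leaves), and a robust quasi-likelihood fit to all 24 libraries with 12 group means and 12 residual degrees of freedom (common coefficient of variation 15.7%). Tests were two-sided F-tests, with Benjamini-Hochberg adjustment over all tested features and a threshold of 0.05. An SE is the absolute log2 fold change over the root of F. Ratios use TMM-scaled library sizes. Those with 1 to 3 counts in a group carry exact 95% intervals, and so does that of KMT10308 in mock leaves. Groups with 0 counts take a floor of 3 over the group. Intervals and floors cover counting error only. Log levels used a prior count of 2, and fold changes the default prior count of the fit. DESeq2 1.42.0 was an alternative. The fit was tested on simulated counts.

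Named features are the 2 highest and 2 lowest log2 fold changes per comparison among calls with a mean of at least 10 counts and no overlap between groups; for the difference between treatments, every pairwise change in ABA leaves had to lie on 1 side of every one in mock leaves. The libraries and lists were chosen with earlier results of these data known. Planned gene lists could not be matched. Replicate pairs differed beyond sampling noise (chi-square over its degrees of freedom 93.3 and 31.8) and were counted separately.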

Additional observations from a re-analysis of the deposited data

Results flagged for a closer look

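The change from 40 to 160 min differed between ABA and mock leaves for 535 features by the test of the difference. The 4 features named for it had edgeR adjusted p of 8.73e-05 (KMT03434), 0.0257 (KMT10308), 0.0196 (KMT17186) and 0.032 (KMT10142). KMT03434 passed under all 17 alternatives, with adjusted p from 2.09e-29 to 0.00248. KMT10308 failed in 6 of 16, KMT17186 in 7 of 17 and KMT10142 in 8 of 17, in each case at the threshold of 0.01 and without the single libraries named with them above. Why mock 40 min replicate 1 held 20.5% of its counts in 40 abundant features was not tested.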

How the results depend on the processing

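Counts of features past the threshold are given in the order mock 160 against 40 min (4732), mock 80 against 40 min (832), mock 160 against 80 min (3252), ABA 160 against 40 min (5875) and the difference between treatments (535). Library size alone gave 8502, 663, 5323, 8039 and 300, and a threshold of 0.01 gave 2609, 149, 1384, 3673 and 176. Fits to the compared groups only gave 3718, 162, 900, 7448 and 821, and DESeq2 gave 5042, 1370, 3667, 6006 and 892. Leaving out 1 library gave 2508 to 3720, 20 to 1787, 1501 to 3627, 3701 to 4308 and 170 to 548; a group with 1 library left was assumed to vary like the others. RLE factors, both other filters and omission of the 100 most abundant features kept all 5 counts within 1.5 times, as did the 12 mock libraries alone for the 3 mock comparisons, which are all they can give. DESeq2 shared 4639 of the 4732 calls with their direction, and the library-size scaling 2943. Deviations between replicates correlated at -0.06 for mock 40 and 160 min, and at -0.32 to 0.33 over the 66 group pairs. Such values cannot show whether the replicate numbers pair plants. A replicate block gave 4611 in place of 4732. The share of the abundant features at 160 min minus that at 40 min was -8.70 percentage points for 100, -6.60 for 50 and -8.50 for 500. Of 285 alternatives for named features, 235 kept the call, 50 lost it and 0 reversed it. The 285 leave out runs in which DESeq2 gave no adjusted p. These concern KMT10308 for the difference, KMT16478 from 40 to 80 min and KMT16763 from 80 to 160 min. Causes of lost calls were not tested. Each group has 2 plants, and how detection depends on a feature's level was not tested.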
